A study of Bruguiera gymnorhiza with 19 samples.

Results

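The 30 probes described here detected leaf transcripts of Burma mangrove (Bruguiera gymnorhiza) that were higher after 6 h and after 24 h in sorbitol than before treatment, and that stayed within a bound in NaCl. They were selected on measured values from 11997 mangrove probes of an oligonucleotide array. The level of a probe is log2 of its spot intensity plus an offset of 50, quantile-normalized over 18 arrays, so that a difference of 1 is 2-fold. A probe was chosen when its highest group mean was at least 9.5, when both sorbitol times lay at least 0.8 above sorbitol 0 h, and when both NaCl times lay less than 0.5 above NaCl 0 h. Of 5184 probes that reached the level of 9.5, 136 had both sorbitol rises; 106 of these failed a NaCl condition, 38 of them because they rose by at least 0.8 at both times in NaCl as well. The other 68 lay between both sets in NaCl, and Bg04-25_N23_538_576, described below, is among them. The 38 serve below for comparison. The 68 are nearer to the members in NaCl and were not compared as a set. The 4 differences of the selection are given as a description without a test. Tests were made on the change from 6 h to 24 h in each treatment. The selection does not name that change but shapes it: the change in sorbitol is the difference of both selected rises, the NaCl rises were capped, and 9 members reached the level of 9.5 only in the sorbitol 24 h mean. The shares of members called below are therefore a description, and nothing is read from them. The adjusted p-values of single members carry the same limit.

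Leaves came from 3-year-7-month-old plants grown from seed in pots of vermiculite under laboratory light. The plants' water was exchanged for a solution of 500 mM NaCl or of 1 M sorbitol (spelled Solbitol in the labels), and leaves were taken just before treatment (0 h), at 6 h and at 24 h. The 6 groups, NaCl 0 h, NaCl 6 h, NaCl 24 h, sorbitol 0 h, sorbitol 6 h and sorbitol 24 h, each hold 3 samples, A, B and C, labelled as biological replicates. The letters are those of the sample titles; for NaCl 24 h C the free description gives replicate A instead, and the characteristics of NaCl 6 h C number it as the second of 3. Both 0 h groups were untreated and are separate samples. NaCl 0 h C was also put on a repeat array, which the selection did not use. The sources used here do not say whether a sample is 1 plant or several, and a p-value measures the spread among these samples. Each solution was used at 1 dose, so a contrast between the treatments is a contrast between these particular solutions.

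A mangrove root in sea water meets both a low water potential and high concentrations of sodium and chloride. NaCl applied to the roots brings both at once, whereas sorbitol, a sugar alcohol, lowers the water potential without adding the ions. Plant leaves under osmotic stress are known to accumulate abscisic acid, compatible solutes and protective proteins such as dehydrins. The files used here pair each probe with a sequence and an identifier but with no gene name, so no member is placed in these pathways, no list of osmotic stress genes was counted, and the leaf tissue was not checked against marker genes. Because the samples were whole leaves, more RNA per cell and more cells of the type that holds it cannot be told apart.

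Each identifier starts with a Bg name, called a clone here, or a contig (CL) name and ends in a pair of numbers whose span equals the probe's length in all 30 members. The probes are 35 to 40 bases long. Their sequences come first because several members share stretches of sequence. In the lines below, capitals mark bases that lie in a run of 15 or more bases shared with another probe of the same group of lines. The longest run of a pair was taken first, and further runs were sought only in the bases beside it. Lower-case bases can therefore lie in a run that overlaps a longer one. The first 15 bases of Bg02-08_D17_564_599, the lower-case bases of CL273Contig1_562_597 after its first base, and the lower-case base within Bg03-05_F14_546_580 do so. The bound of 15 was set after the runs had been seen, and with a bound of 20 bases the first group of lines keeps only the pair Bg03-08_B06_540_576 and Bg04-03_O04_548_586. Bg04-25_N23_538_576 and CL417Contig1_296_332 are not members and are printed because they share runs with members.
Bg03-08_B06_540_576: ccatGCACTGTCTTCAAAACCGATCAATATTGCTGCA
Bg04-03_O04_548_586: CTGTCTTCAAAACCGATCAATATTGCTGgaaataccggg
Bg04-30_K13_568_603: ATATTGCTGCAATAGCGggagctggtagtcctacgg
Bg03-05_F14_546_580: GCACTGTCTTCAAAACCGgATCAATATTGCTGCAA
Bg04-25_N23_538_576: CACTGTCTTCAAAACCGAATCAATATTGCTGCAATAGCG
Bg02-10_E22_336_373: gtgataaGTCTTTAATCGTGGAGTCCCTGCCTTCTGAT
CL417Contig1_296_332: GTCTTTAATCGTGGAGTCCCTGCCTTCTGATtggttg
CL273Contig1_562_597: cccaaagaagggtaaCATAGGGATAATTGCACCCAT
Bg02-08_D17_564_599: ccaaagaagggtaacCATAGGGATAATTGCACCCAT

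The first 5 lines overlap along 1 stretch of sequence. Bg03-08_B06_540_576 shares an unbroken run of 28 bases with Bg04-03_O04_548_586 and non-overlapping runs of 18 and 15 with Bg03-05_F14_546_580. Bg04-30_K13_568_603 is joined to them through Bg04-25_N23_538_576, with which it shares 17 bases; its longest run with another member of the group is 12. The number pairs in the 5 identifiers, all of separate clones, lie between 538 and 603. Whether they detect 1 transcript or near-identical transcripts of a family was not tested, and signal from one could be read by another. CL273Contig1_562_597 and Bg02-08_D17_564_599 share non-overlapping runs of 21 and 14 bases, 35 of their 36 bases in all. The shorter run is 15 bases long where it may overlap the longer one. Counting overlapping probes once, the 30 probes are 26 distinct sequences or sets, and the 4 overlapping members are not 4 independent measurements. No member had its whole sequence on another probe, and no other probe of the array came from a member's contig or clone.

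Of the remaining members, 3 are printed because their late change in sorbitol also differed from that in NaCl, as described below. None of them shares a run of 15 or more bases with another member. No base is capitalised.
CL38Contig1_682_716: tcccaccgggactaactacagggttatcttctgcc
CL1389Contig1_154_193: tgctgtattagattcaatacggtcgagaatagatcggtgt
Bg04-22_L19_257_291: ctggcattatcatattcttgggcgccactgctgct

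In sorbitol the members rose by a median of 1.19 at 6 h (range 0.82 to 2.38) and of 2.11 at 24 h (range 0.93 to 4.93). The medians over all 8642 probes tested were -0.0035 and 0.02. In NaCl the members' medians were 0.07 at 6 h and -0.01 at 24 h, with ranges of -0.92 to 0.46 and -0.70 to 0.50. The median member level went from 8.73 at sorbitol 0 h to 9.95 at 6 h and 11.36 at 24 h, while the NaCl medians were 8.93, 8.97 and 8.93. All of these numbers describe the selection.

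CL273Contig1_562_597 was the member with the highest value of its smaller sorbitol rise, counted from 0 h levels within the range of the negative controls. Its levels in samples A, B and C were 6.88, 7.47 and 7.55 at sorbitol 0 h, 9.73, 9.12 and 10.18 at 6 h and 9.68, 11.06 and 11.12 at 24 h. In NaCl its 9 levels lay between 6.97 and 8.52, and only 1 of them was above the negative control spots. The 6 treated sorbitol samples lie above all other 12 samples. Since no sorbitol 0 h sample stood above the negative controls, which means above the 95th percentile of 70 control spots on that array, the rise is a bound: at least 2.34-fold at 6 h and at least 4.48-fold at 24 h. For such a bound the dim group's level was raised, on each array where the probe's own level was lower, to the lowest level that any probe above the controls had there, and the mean of these log2 levels was subtracted from that of the bright group. The overlapping probe Bg02-08_D17_564_599 had 7.79, 7.24 and 7.66 at sorbitol 0 h, 8.77, 8.78 and 8.49 at 6 h and 8.97, 10.20 and 10.65 at 24 h, at least 1.17-fold and 2.80-fold. In this probe too the 6 treated sorbitol samples lie above all other 12 samples.

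Bg04-22_L19_257_291 rose in near equal steps of 1.95 and 2.02. It read 7.75, 8.34 and 8.21 in sorbitol 0 h samples A, B and C, 10.34, 9.99 and 9.84 at 6 h and 12.41, 11.78 and 12.02 at 24 h, and 1 of the 3 sorbitol 0 h samples was above the controls. Its 9 NaCl levels ran from 8.70 to 9.47, all above the controls and all above its sorbitol 0 h levels. The samples of the 3 sorbitol times do not overlap with each other. The untreated samples of both series do not overlap either for this probe, with means of 8.99 in NaCl 0 h and 8.10 in sorbitol 0 h.

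Bg02-10_D09_501_535 and CL1570Contig1_302_336 were above the controls in every sample. Bg02-10_D09_501_535 went from 8.98, 9.51 and 9.44 at sorbitol 0 h to 11.19, 11.35 and 11.04 at 6 h and 12.58, 11.79 and 12.40 at 24 h, 3.69-fold and 7.72-fold between group means. CL1570Contig1_302_336 went from 9.10, 9.67 and 9.02 to 11.44, 10.92 and 10.25 and 12.69, 11.69 and 12.03, 3.06-fold and 7.35-fold. In both probes all samples of a later sorbitol time lie above all samples of the earlier time. Their NaCl levels stayed within 9.01 to 10.26 and 8.60 to 9.63.

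CL372Contig1_499_533 had the highest mean level of the 30 over the 18 samples, 12.30. It was near constant at sorbitol 0 h, 11.58, 11.59 and 11.63, and read 12.92, 13.04 and 13.29 at 6 h and 13.42, 13.90 and 13.30 at 24 h. Its highest untreated value, 12.46 in NaCl 0 h B, lies below all 6 treated sorbitol values. CL1389Contig1_154_193 had the lowest mean, 7.98, and stood above the controls in none of the 9 NaCl samples and none of the sorbitol 0 h samples. It read 6.58, 7.43 and 7.12 at sorbitol 0 h and 8.53, 7.69 and 8.56 at 6 h, where 2 of 3 samples were above the controls, and 11.05, 11.12 and 11.18 at 24 h, at least 6.34-fold above 0 h. Its 24 h samples lie close together and far above the 6 h samples.

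CL704Contig1_672_706, a bright probe, read 10.72, 10.86 and 10.64 at sorbitol 0 h, 12.21, 12.26 and 11.73 at 6 h and 11.96, 12.09 and 12.54 at 24 h. Its 6 h and 24 h samples overlap, and all lie above its NaCl samples, the highest of which was 11.34. Bg04-13_N05_140_177, a dim one, read 7.41, 7.98 and 7.81 at sorbitol 0 h, 9.10, 9.26 and 8.40 at 6 h and 9.13, 11.27 and 11.58 at 24 h. It was above the controls in none of the 12 untreated and NaCl samples, and its rise at 24 h was at least 4.62-fold. Sample A of Bg04-13_N05_140_177 was as high at 24 h as at 6 h, while B and C rose further.

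Of the 30 members, 23 had all 3 sorbitol 0 h values below all 6 later sorbitol values, beside 5.51% of all probes tested and 36 of the 38 probes that rose in both treatments. The selection used this contrast, and nothing is read from the count. All 30 were above the negative controls in all 3 sorbitol 24 h samples and 28 in all 3 sorbitol 6 h samples. Before sorbitol, 8 members were above the controls in no sample, and 4 (CL1389Contig1_154_193, Bg04-30_K13_568_603, Bg04-13_N05_140_177 and Bg02-08_D17_564_599) were also above them in no NaCl sample. At the other end 12 members were above the controls on all 18 arrays. These counts depend on the control threshold of each array. It was an intensity of 2.51 on sorbitol 6 h C, which 8236 probes passed, and 53.4 on sorbitol 0 h C, which 6559 passed. Bg04-30_K13_568_603 thus counted as above the controls at 6 h C with 22.25 but not at 0 h C with 47.92. Nothing is read from a difference in these counts between times.

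Between 6 h and 24 h in sorbitol, 13 of the 30 members were called higher and none was called lower (limma, Benjamini-Hochberg adjusted p below 0.05 over 8642 probes). That is 43.3% of the members, beside 3.27% of all probes tested that were called higher and 2.23% that were called lower. Of the 9 members that reached the level of 9.5 only at sorbitol 24 h, 8 were called, and of the other 21 members 5 were. Counting overlapping probes once, the 13 are 10 sequences or sets. Of the 38 probes that rose in both treatments, 3 were called higher and none lower. The median change was 0.95 over the members, 0.17 over those 38 and 0.01 over all probes tested, and 25 members had the higher mean at 24 h.

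Bg04-30_K13_568_603 rose the most. Its levels in samples A, B and C were 7.28, 8.12 and 8.46 at sorbitol 0 h, 9.84, 9.23 and 8.39 at 6 h and 11.77, 13.24 and 13.64 at 24 h. No untreated or NaCl sample was above the controls, with NaCl levels of 6.41 to 7.56, and the lowest 24 h sample lies well above the highest 6 h sample. The change from 6 h to 24 h was 3.73 (SE 0.41, limma adjusted p = 4.6e-06), a 13.3-fold rise, and the 24 h level was at least 21.6-fold above 0 h.

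The 3 other members of the overlapping set moved alike. Bg04-03_O04_548_586 read 7.64, 8.34 and 8.48, then 10.53, 9.65 and 7.91, then 11.82, 12.86 and 12.93, with 1 of 3 sorbitol 0 h samples and 2 of 3 sorbitol 6 h samples above the controls. Bg03-05_F14_546_580 read 7.94, 8.28 and 8.68, then 10.24, 9.26 and 8.46, then 11.64, 12.68 and 12.66. Bg03-08_B06_540_576, the brightest of the set before treatment, read 8.54, 9.36 and 9.41, then 11.10, 10.63 and 9.31, then 12.32, 13.72 and 13.30. In each of the 4 probes sample A was highest and sample C lowest at 6 h, sample A was lowest at 24 h, and every 24 h sample stood above every 6 h sample. In all 4 the 6 h sample C lay within the range of the 0 h samples, so their 6 h rise rests on samples A and B. Sample C lowest at 6 h together with sample A lowest at 24 h was not particular to the set. It was found in 10 of the 30 members and in 7 of the 13 called. Sorbitol 6 h C was the array of lowest signal, with a median probe intensity of 52.9, and its part in this order was not tested. The late changes were 3.17 (SE 0.46, limma adjusted p = 0.00011) for Bg04-03_O04_548_586, 3.00 (SE 0.38, limma adjusted p = 2.7e-05) for Bg03-05_F14_546_580 and 2.76 (SE 0.39, limma adjusted p = 9.5e-05) for Bg03-08_B06_540_576.

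Bg04-25_N23_538_576, the probe of the same stretch outside the selection, read 8.23, 8.03 and 8.84, then 10.46, 9.49 and 8.27, then 11.75, 12.66 and 13.03 in sorbitol. As in the 4 members, sample A was highest and C lowest at 6 h, and A was lowest at 24 h. The probe missed the selection because its NaCl 6 h mean was 0.53 above NaCl 0 h, with levels of 7.04, 7.56 and 8.00 at 0 h, none above the controls, and 7.74, 8.23 and 8.20 at 6 h, 1 above them. From 6 h to 24 h in sorbitol it changed by 3.07 (SE 0.42, limma adjusted p = 0.0001). The selection thus took 4 of 5 probes of 1 stretch on a NaCl difference between levels near the controls.

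CL38Contig1_682_716 had the same highest and lowest samples and shares no run of 12 or more bases with the set. It read 7.45, 7.98 and 8.52 at sorbitol 0 h, with no sample above the controls, 9.79, 8.89 and 8.78 at 6 h and 11.12, 12.26 and 12.88 at 24 h, at least 12.4-fold above 0 h. The late change was 2.93 (SE 0.42, limma adjusted p = 0.00011). CL1389Contig1_154_193, whose samples are given above, changed by 2.86 (SE 0.30, limma adjusted p = 2.4e-06). Bg04-22_L19_257_291 changed by 2.02 (SE 0.26, limma adjusted p = 4e-05), a 4.04-fold rise. These 7 probes are those with a late rise of 2 or more.

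The smallest late rises that were called were close to 1. Bg02-10_D09_501_535 rose by 1.06 (SE 0.28, limma adjusted p = 0.028) and CL1570Contig1_302_336 by 1.27 (SE 0.32, limma adjusted p = 0.022), with all samples given above. Bg04-04_L05_321_355 read 7.89, 8.06 and 7.53 at sorbitol 0 h, 9.08, 9.39 and 8.84 at 6 h and 10.13, 10.51 and 10.23 at 24 h. Bg05-21_H01_513_547 read 7.85, 7.96 and 7.50 at 0 h, 9.03, 8.64 and 8.46 at 6 h and 10.29, 9.67 and 10.18 at 24 h. In both probes the samples of the 3 times do not overlap. Neither had a sorbitol 0 h sample above the controls, and their 24 h levels were at least 3.56-fold and 3.02-fold above 0 h. The late rises were 1.18 (SE 0.25, limma adjusted p = 0.0047) and 1.34 (SE 0.28, limma adjusted p = 0.0042). The remaining called members, Bg04-13_N05_140_177 and Bg02-02_P10_265_299 (the latter named only to complete the 13), rose by 1.74 and 1.66 (limma adjusted p = 0.018 and 0.0016).

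The other 17 members were not called, and 10 members changed by less than 0.5 either way. Bg02-10_E22_336_373 read 9.31, 10.04 and 9.99 at sorbitol 0 h, 11.70, 11.32 and 11.95 at 6 h and 10.96, 11.31 and 11.74 at 24 h, a late change of -0.32 (SE 0.28, limma adjusted p = 0.63). Its samples at 6 h and 24 h overlap, and both lie above 0 h. CL417Contig1_296_332, which shares 31 of its 37 bases, read 10.93, 11.27 and 10.94, then 12.38, 12.24 and 12.26, then 11.72, 11.86 and 11.85, and missed the selection with a 24 h rise of 0.77. CL704Contig1_672_706 changed by 0.13 (SE 0.25, limma adjusted p = 0.87), and CL372Contig1_499_533 by 0.46 (SE 0.26, limma adjusted p = 0.41). Bg03-01_D23_305_339 read 10.32, 10.17 and 10.31 at 6 h and 9.90, 10.11 and 10.09 at 24 h, above 8.82, 9.21 and 8.70 at 0 h; 1 NaCl sample, 24 h C at 10.30, reached its sorbitol levels. The lowest late change was that of Bg02-08_M07_517_551, named after its value was seen, with 10.08, 10.73 and 10.49 at 6 h and 9.48, 10.09 and 9.70 at 24 h (difference -0.68, SE 0.31, limma adjusted p = 0.26). Among members close to the bounds, Bg02-07_M17_71_105 read 9.36, 9.70 and 9.60 at sorbitol 0 h, 10.52, 10.29 and 10.75 at 6 h and 10.55, 10.89 and 11.15 at 24 h, and CL270Contig1_138_172 read 10.84, 10.39 and 10.28, then 11.92, 11.35 and 10.82, then 12.36, 11.86 and 12.43. Bg04-24_A05_430_464 read 8.55, 8.74 and 8.81, then 10.13, 9.49 and 9.18, then 9.79, 9.51 and 10.38. The 6 h and 24 h samples overlap in these 3 probes, and in CL270Contig1_138_172 the 6 h sample C also lies within the 0 h range. The late change of CL270Contig1_138_172 was 0.85 (SE 0.27, limma adjusted p = 0.076). A value that missed the threshold does not show that the level stayed the same.

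In 15 members all 3 sorbitol 24 h samples lay above all 3 sorbitol 6 h samples, beside 11.2% of all probes tested and 11 of the 38 that rose in both treatments. In 25 members all 3 sorbitol 24 h samples lay above all 9 NaCl and all 3 sorbitol 0 h samples, beside 4.77% of all probes tested and 17 of those 38; the selection shaped this count, and nothing is read from it. The sorbitol 24 h samples that fail it include CL409Contig1_776_810 sample A, at 10.56 beside 11.59, 11.02 and 11.08 at sorbitol 0 h, while its samples B and C stood at 12.98 and 12.96.

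In NaCl no member was called between 6 h and 24 h in either direction (limma), beside 1.7% of all probes tested called higher and 1.11% called lower. At an unadjusted p below 0.05 there were 3 members of 30, and 1111 of all 8642 probes. The member with the highest change from 6 h to 24 h was Bg04-04_L05_321_355, with 8.98, 8.86 and 8.49 at NaCl 0 h, 8.08, 7.56 and 7.94 at 6 h and 8.36, 8.92 and 8.63 at 24 h. From 6 h to 24 h it changed by 0.78 (SE 0.25, limma adjusted p = 0.12), and 1 of 3 samples at 6 h was above the controls. Its NaCl level dipped at 6 h below all 0 h samples, and this probe was called with the median in place of the mean of the spot's pixels (1.10, limma adjusted p = 0.0246). The lowest was Bg02-10_D09_501_535 at -0.61 (SE 0.28, limma adjusted p = 0.37).

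The selection bounds NaCl changes from above only. Both NaCl times were below NaCl 0 h in 10 members and above it in 11, and 9 members stayed within 0.25 of NaCl 0 h at both times. A drop of 0.5 or more at either time was seen in 6 members, the largest in Bg04-04_L05_321_355 at 6 h (-0.92) and the next in Bg05-24_G09_186_220, with 10.91, 11.50 and 11.04 at 0 h, 10.27, 10.33 and 10.38 at 6 h and 10.61, 11.25 and 11.14 at 24 h. The 3 NaCl 6 h samples of Bg05-24_G09_186_220 lie together below all NaCl 0 h and 24 h samples.

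The change from 6 h to 24 h was greater in sorbitol than in NaCl for 6 members (limma interaction term, Benjamini-Hochberg adjusted p below 0.05) and smaller for none, beside 0.474% and 0.15% of all probes tested. Of the 38 probes that rose in both treatments, none was called in either direction. The 6 are 20% of the members and 4 sequences or sets, and 5 of them reached the level of 9.5 only at sorbitol 24 h. The differences were 4.19 for Bg04-30_K13_568_603 (SE 0.58, limma adjusted p = 0.00091) and 3.47 for CL38Contig1_682_716 (SE 0.60, limma adjusted p = 0.0065). They were 2.30 for Bg04-22_L19_257_291 (SE 0.37, limma adjusted p = 0.0042) and 2.68 for CL1389Contig1_154_193 (SE 0.42, limma adjusted p = 0.0038). Bg04-03_O04_548_586 and Bg03-05_F14_546_580, of the same stretch as Bg04-30_K13_568_603, had 3.37 and 3.10 (limma adjusted p = 0.016 and 0.0065), and Bg03-08_B06_540_576 had 2.33 (limma adjusted p = 0.054). The probe outside the selection, Bg04-25_N23_538_576, had 3.35 (SE 0.59, limma adjusted p = 0.0065).

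Of these probes only Bg04-22_L19_257_291 was above the controls in every NaCl sample, where it read 9.47, 8.70 and 9.44 at 6 h and 8.78, 9.00 and 8.97 at 24 h. Bg04-30_K13_568_603 read 6.89, 6.96 and 7.56 at NaCl 6 h and 6.62, 6.41 and 6.99 at 24 h. CL38Contig1_682_716 read 6.91, 7.31 and 8.41 at 6 h and 7.21, 6.68 and 7.13 at 24 h, and CL1389Contig1_154_193 read 7.08, 7.00 and 7.14 and 6.70, 7.73 and 7.33. In these 3 the NaCl change is one between levels at or under the controls, with 1 sample (CL38Contig1_682_716, NaCl 6 h C) above them. The median difference was 0.53 over the members, 0.25 over the 38 probes that rose in both treatments and 0.02 over all probes tested.

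At 0 h the sorbitol series started lower than the NaCl series in 19 members, by 0.5 or more in 5. The largest gap was in Bg02-10_E22_336_373, with 10.48, 11.25 and 10.53 at NaCl 0 h beside 9.31, 10.04 and 9.99 at sorbitol 0 h, and the median gap was -0.11 over the members and 0.01 over all probes tested. Both groups were untreated, and a low sorbitol 0 h mean raises both sorbitol differences. With NaCl 0 h as the control of both series 46 probes met the conditions, of which 20 were members, and with both 0 h groups pooled 66 did, of which 24 were members. Bg02-10_E22_336_373, Bg04-04_L05_321_355 and Bg03-01_D23_305_339 were among the 10 members lost with NaCl 0 h as the control; all 4 of the overlapping set were kept.

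Signal differed between arrays. On 4 of them, all of the letter C (the 3 sorbitol groups and NaCl 6 h), the median probe intensity was 52.9 to 84.3 and 2126 to 3216 probes read 0, beside 225 to 1729 and 0 to 54 on the other 14. Of the 13 called members, 12 had their lowest 6 h level in sample C, and 8 had their lowest 24 h level in sample A; over all 30 members each held for 18. Without these arrays, all 30 members still had both sorbitol means above sorbitol 0 h, 27 of them by at least 0.8, and the lowest value of the smaller rise was 0.46. The late rise was then called in 8 members: the 7 with a rise of 2 or more, now at 1.87 to 2.85, and Bg05-24_G09_186_220 (1.34, limma adjusted p = 0.0241). The other 6 of the 13 had changes of 0.90 to 1.28 and were not called with 2 samples left in each sorbitol group. Of the 6 called differences between treatments, only that of Bg04-30_K13_568_603 was still called (3.17, limma adjusted p = 0.0351). The others were 2.02 to 2.56 and missed the threshold (limma adjusted p = 0.0905 to 0.139).

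The repeat array of NaCl 0 h C was not used by the selection. The size of the gap between both arrays had a median of 0.22 over the members and 0.21 over all probes tested. The repeat lay below all sorbitol 24 h samples in 29 members, beside 31.7% of all probes tested, and below all sorbitol 6 h samples in 29, beside 25.9%. The sorbitol samples in this count are those of the selection, and nothing is read from it. The smallest gap was that of CL1570Contig1_302_336, 8.86 on both arrays. The largest was that of CL409Contig1_776_810, which read 11.98 on the first array and 10.08 on the repeat; its sorbitol samples also spread widely, with 13.39, 12.42 and 11.80 at 6 h and 10.56, 12.98 and 12.96 at 24 h.

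Members near the bounds differ little from probes just outside them. Just inside the bound of 0.8 on the smaller rise were Bg05-24_G09_186_220 at 0.82, CL270Contig1_138_172 at 0.86 and Bg04-24_A05_430_464 at 0.90. Just outside were Bg05-21_J20_522_556 and CL623Contig1_661_695, both at 0.795, and Bg04-13_H19_494_528 at 0.79. On the NaCl bound of 0.5, Bg02-07_M17_71_105 at 0.499, CL704Contig1_672_706 at 0.46 and Bg02-08_D17_564_599 at 0.36 were inside, and CL658Contig1_229_263, CL1358Contig1_387_421 and Bg04-15_A14_409_443, all at 0.51, were outside. The 24 h rise of Bg04-15_A14_409_443 rests on sample C: it read 8.02, 8.54 and 14.77 at sorbitol 24 h.

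The members' design features, which the selection did not use, were these. Contigs made up 8 of the 30 (26.7%, beside 11.9% of all probes tested) and single clones 22. By the prefix of the clone name, which the sources used here do not explain, 7 members were Bg02 (23.3%, beside 10.6%), 6 Bg04 (20%, beside 34.6%), 4 Bg05 (13.3%, beside 23.5%), 3 Bg03 and 2 Bg01. The median GC content was 45.7% in the members (range 40 to 54.3) and 48.6% in all probes tested, and the median length was 35 bases in both. With so few members, and with 4 probes of 1 stretch among them, these shares are given as a description.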

How the data were processed

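RNA from 18 leaf samples in 6 groups of 3, and 1 repeat array, was amplified to cRNA, labelled with Cy5 and hybridized to 1-colour arrays, per the labels' protocols. Per the file headers, the deposited scanner files hold each spot's mean and median foreground intensity on a linear scale (12544 spots an array) and no local background; the sources used here do not name the scanner's software. The level was log2(foreground mean + 50), quantile-normalized over the 18 arrays of separate samples in R 4.3.3, with limma 3.58.1 and jsonlite 2.0.0; sequences were compared in Python 3.11.15 with pandas 2.3.3. Probes above the 95th percentile of 70 negative control spots in at least 3 of 18 samples were tested (8642 of 11997, all 30 members among them). No member had an excluded or saturated spot. One limma fit over the 6 groups (12 residual degrees of freedom) gave the changes from 6 h to 24 h and their difference, with Benjamini-Hochberg adjustment over all probes tested and a threshold of 0.05; the fit was tested on simulated data. The number of arrays, 3 in a group, limits the precision.

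The members, the naming rule and the alternatives were chosen with earlier results of these data known. Named were the 12 members with the highest smaller sorbitol rise among those whose 0 h samples lie below all later ones; the 4 highest and 4 lowest called late changes; the 2 highest and 2 lowest called differences between treatments; probes sharing 20 or more bases; the 3 probes on each side of each bound; the highest and lowest mean level; and the largest and smallest gap to the repeat array. Others were named after their values were seen: the further probes of the overlapping set, the highest and lowest NaCl changes, and probes named to complete a count of 5 or fewer or a list of calls. Planned gene lists were not counted because no probe carries a gene name here. The link of 15 shared bases, the deposited value table as an alternative and the check on excluded spots were added after seeing the data. In the authors' deposited table, 3 columns of which held unscaled intensities, every column was put on log2 and quantile-normalized anew.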

Additional observations from a re-analysis of the deposited data

Results flagged for a closer look

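For 6 members the change from 6 h to 24 h was called different between sorbitol and NaCl by the interaction term of the limma fit. The differences, sorbitol change minus NaCl change on the log2 scale, were 4.19 for Bg04-30_K13_568_603, 3.47 for CL38Contig1_682_716, 3.37 for Bg04-03_O04_548_586, 3.1 for Bg03-05_F14_546_580, 2.68 for CL1389Contig1_154_193 and 2.3 for Bg04-22_L19_257_291. The samples behind them are given in the report. Bg04-30_K13_568_603, Bg04-03_O04_548_586 and Bg03-05_F14_546_580 overlap in sequence and count as 1 set. All but Bg04-22_L19_257_291 reached the level of 9.5 that the selection asked for only at sorbitol 24 h, so the selection shaped these differences. Without the 4 low-signal arrays only Bg04-30_K13_568_603 was called, at 3.17. The other differences were then 2.02 to 2.56, with fewer samples, and the part of those arrays in them was not tested further.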

How the results depend on the processing

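The number of probes that met the selection moved with its control: it was 46 with NaCl 0 h as the control of both series and 66 with both 0 h groups pooled. It was 47 without the 4 low-signal arrays, 26 of them members, and 23 to 39 with 1 sample left out (lowest without sorbitol 6 h A, highest without sorbitol 0 h C). Under the other 12 settings it lay between 21 and 39. In all 18 fits that left out a sample 12 members were kept, and 5 of them met the selection in the 12 changes of processing or control too.

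Of the late changes in sorbitol, 13 members were called; 8 were without the 4 low-signal arrays, 3 when only the 4531 probes above the controls on all 18 arrays were tested, which hold 12 members, and 11 to 13 with 1 sample left out. For the NaCl change the count was 0, 1 with the foreground median, and 0 to 0 with 1 sample left out. For the difference between treatments it was 6, then 1 without the low-signal arrays, 1 (not among the 6) over probes above the controls on all arrays, and 5 to 9 with 1 sample left out (lowest without NaCl 24 h B, highest without sorbitol 6 h A). No call among the members changed sign. Over all probes 476 were called in sorbitol, 243 in NaCl and 54 in the difference; median scaling gave 235, 82 and 18, and of the last 94.4% were then higher beside 75.9%; without the low-signal arrays they were 258, 195 and 9, and an offset of 100 gave 87 for the difference. With 1 sample left out the 3 counts ran from 283 to 559, 122 to 271 and 21 to 140. The normexp correction failed on 6 of the 18 arrays, giving values above those measured. These 6, with the 4 low-signal arrays among them, kept their uncorrected intensity plus the offset of 50. The normexp setting is therefore a mix of corrected and uncorrected arrays.

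The labels do not say that the letters A, B and C mark shared plants. Correlations over probes of same-letter deviations from the group means were -0.137, 0.115 and -0.153 between sorbitol 6 h and 24 h, and 0.370, -0.295 and 0.216 between NaCl 6 h and 24 h. All 3 letters were above 0.1 in 2 of 15 pairs of groups, sorbitol 0 h with 6 h (0.479, 0.209 and 0.377) and NaCl 6 h with sorbitol 6 h (0.396, 0.103 and 0.333), and 13 of 18 samples correlated best, on average, with their own letter. The letters were not taken as pairs for the changes tested, where the correlations were of mixed sign. The 2 pairs of groups and the 13 samples go the other way, and the low-signal arrays are all of the letter C. With the letter as a replicate block, 14 members were called in sorbitol, 0 in NaCl and 9 in the difference, and 602, 306 and 136 over all probes.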
